A study of Mus musculus with 18 samples.

Results

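The genes described here are the collagen genes: protein-coding genes whose symbol is Col, a type number, the letter a and a chain number. The count table held 44 such genes, and 39 of them reached 10 counts in total over the 18 libraries and entered the tests, among 21772 genes tested. They comprised 11 fibrillar genes (Col1a1, Col1a2, Col2a1, Col3a1, Col5a1, Col5a2, Col5a3, Col11a1, Col11a2, Col24a1 and Col27a1), 6 basement membrane genes (Col4a1, Col4a2, Col4a5, Col4a6, Col15a1 and Col18a1) and 22 genes of other types. Col4a3, Col4a4, Col6a6, Col9a1 and Col9a2 had between 2 and 9 counts in all and were not tested. All 39 were measured in 6 groups of C2C12 cells, a mouse myoblast line that fuses into myotubes when serum is withdrawn.

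The cells were transfected as confluent myoblasts with a pool of siRNAs, at the start of differentiation. The pool was a non-targeting control (siNtc, spelled siNTC in the labels), a pool against Erk3, the kinase encoded by Mapk6 (siErk3), or a pool against Mk5, the kinase encoded by Mapkapk5 that binds Erk3 (siMk5). After 6 days the myotubes were held for 16 h in serum-free medium with 0.5 mM palmitic acid bound to bovine serum albumin (PA) or with the albumin alone (BSA), so all 6 groups had been transfected and had gone without serum. Each group had 3 libraries of poly(A)-selected, strand-specific RNA, from 1 cell line. Nothing in the labels says that the libraries came from separate cultures, so the p-values measure the spread between these samples, which may be technical. The comparisons ask how PA changed the collagen transcripts, and whether silencing either kinase changed them or their response.

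Collagens are built from 3 chains wound into a triple helix, and the chains of 1 molecule can come from 1 gene or from several. Fibrillar collagens form the tensile fibres of tissue, type IV makes the sheet of the basement membrane, and the other types coat fibrils, link cells to the matrix, form networks or stay in the cell membrane. Around muscle fibres, interstitial cells are known as the main source of types I and III, and type IV and type VI make up much of the layer next to the fibre. Saturated fatty acids such as palmitic acid are widely used on cultured myotubes as a model of lipid overload.

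The libraries held 13041979 to 28496727 read pairs assigned to genes. Values below are CPM, counts brought by TMM scaling to 1 common library size, and levels of different genes are compared only as CPM per kb of annotated exon. That length covers all annotated exons of a gene, whether or not these cells use them, so ranks and ratios between genes depend on it. Mapk6 was lower in siErk3 than in siNtc, with a log2 difference of -1.20 ± 0.06 (SE, n = 3 and 3, adjusted p = 1.77e-14) with BSA and -0.95 ± 0.06 (adjusted p = 1.21e-12) with PA. Mapk6 was itself higher with PA than with BSA, by 0.81 ± 0.06 in siNtc, 1.06 ± 0.06 in siErk3 and 0.74 ± 0.06 in siMk5. For Mapkapk5, a gene of low level, the difference of siMk5 from siNtc was -0.61 ± 0.21 with BSA (adjusted p = 0.469) and -0.49 ± 0.18 with PA (adjusted p = 0.469), which did not pass. The paper reports that Western blots showed both kinases to be efficiently silenced at the protein level. It also reports less Erk3 protein after Mk5 silencing, and a non-significant trend to less Mk5 protein after Erk3 silencing. The siMk5 state is therefore not a loss of Mk5 alone at the protein level. All 12 myotube markers were present in every library, Myog at 310.3 to 499 CPM and Acta1 at 2833 to 3713 CPM. Of 8 fibroblast markers, Thy1 was at 0 in 11 of 18 libraries and never above 0.143 CPM. All the others were present in every library. Ly6a was the highest of them, at 52.19 to 123.5 CPM, and Clec3b the lowest, at 0.3261 to 2.115 CPM. Pdgfra lay between 10.3 and 25.3 CPM and Pi16 between 10.29 and 24.97 CPM, and Scara5 reached 90.34 CPM. The share of counts on 18S ribosomal RNA was 8.39% to 12.9% in siMk5 with BSA and 1.5% to 7.17% in the other groups. No other group reached the range of siMk5 with BSA. Fits below with this share as a covariate therefore cannot fully separate the share from that group.

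The collagen genes spanned a wide range of levels. Col3a1, the chain of type III, which accompanies type I in soft tissue, led with a mean of 553 CPM per kb over the 18 libraries and was 40th among all genes. After it came the type V chains Col5a2 and Col5a1, at 223 and 193 CPM per kb, and the type I chains Col1a2 and Col1a1, at 176 and 161 CPM per kb. Col6a1 and Col12a1 led the other types at 142 and 124 CPM per kb. Col4a1, Col4a2 and Col18a1 led the basement membrane genes at 104, 91.2 and 79.9 CPM per kb. Col6a3, Col6a2, Col8a1, Col5a3 and Col8a2 followed, between 70.0 and 23.7 CPM per kb. These 15 genes held 99% to 99.48% of the summed collagen CPM of a library, and Col3a1 alone held 20.9% to 32.1%. At the other end, 22 genes lay under 1.5 CPM per kb, down to Col2a1, Col4a6 and Col6a5.

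**Figure D1:**
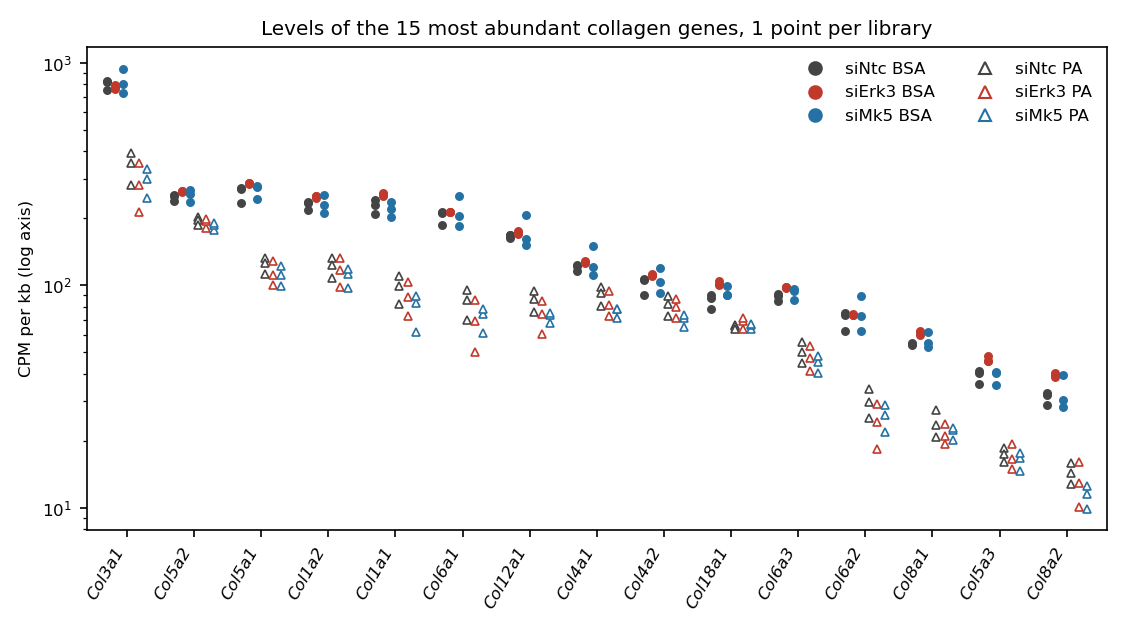
Levels of the 15 most abundant collagen genes in each of the 18 libraries, in CPM per kb on a log axis. Genes are sorted by mean level, with circles for BSA and open triangles for PA. Col3a1, at a mean of 553 CPM per kb, stands first, and Col8a2, at 23.7 CPM per kb, stands last.

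Several collagen genes lie side by side in the mouse genome, by the count table's GRCm39 coordinates. Col3a1 and Col5a2 lie tail to tail on chromosome 1, with Col3a1 at chr1:45350698-45388866 on the plus strand, Col5a2 at chr1:45413481-45542442 on the minus strand, and 24614 bases between them. Col4a1, at chr8:11248423-11362826 on the minus strand, and Col4a2, at chr8:11362805-11499287 on the plus strand, lie head to head and overlap by 22 bases. Col4a6 and Col4a5 lie head to head on chromosome X, 1308 bases apart. Col6a2 and Col6a1 lie on 1 strand of chromosome 10, 85161 bases apart. The libraries kept strand and the counting used it, so reads of head-to-head pairs are assigned by strand.

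PA lowered most of the collagen genes in all 3 silencing states. A gene was called where the adjusted p of edgeR's quasi-likelihood test, by Benjamini-Hochberg over all 21772 genes, was under 0.05 and the fold was over 1.3. With PA against BSA, 24 of 39 collagen genes were lower and 3 higher in siNtc, 26 lower and 3 higher in siErk3, and 26 lower and 4 higher in siMk5. Over all genes tested, 30.6% were called in siNtc (15.1% lower, 15.5% higher), 32.1% in siErk3 (16.3% lower, 15.8% higher) and 29.7% in siMk5 (14.6% lower, 15.1% higher). The median log2 change of the collagen genes was -0.82, -0.89 and -0.89 in siNtc, siErk3 and siMk5, beside -0.03, -0.01 and -0.01 over all genes. Lower in all 3 states were 22 collagen genes, comprising 8 of 11 fibrillar, 3 of 6 basement membrane and 11 of 22 other genes, against 10.8% of all genes. Col10a1, Col11a2 and Col20a1 were higher in all 3 states, against 12% of all genes. The PA libraries all lay below the BSA libraries for 27, 24 and 29 collagen genes in siNtc, siErk3 and siMk5, and all above for 3, 4 and 4. Over all genes tested, 51.3%, 53.9% and 51.9% had groups that did not overlap.

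**Figure D2:**
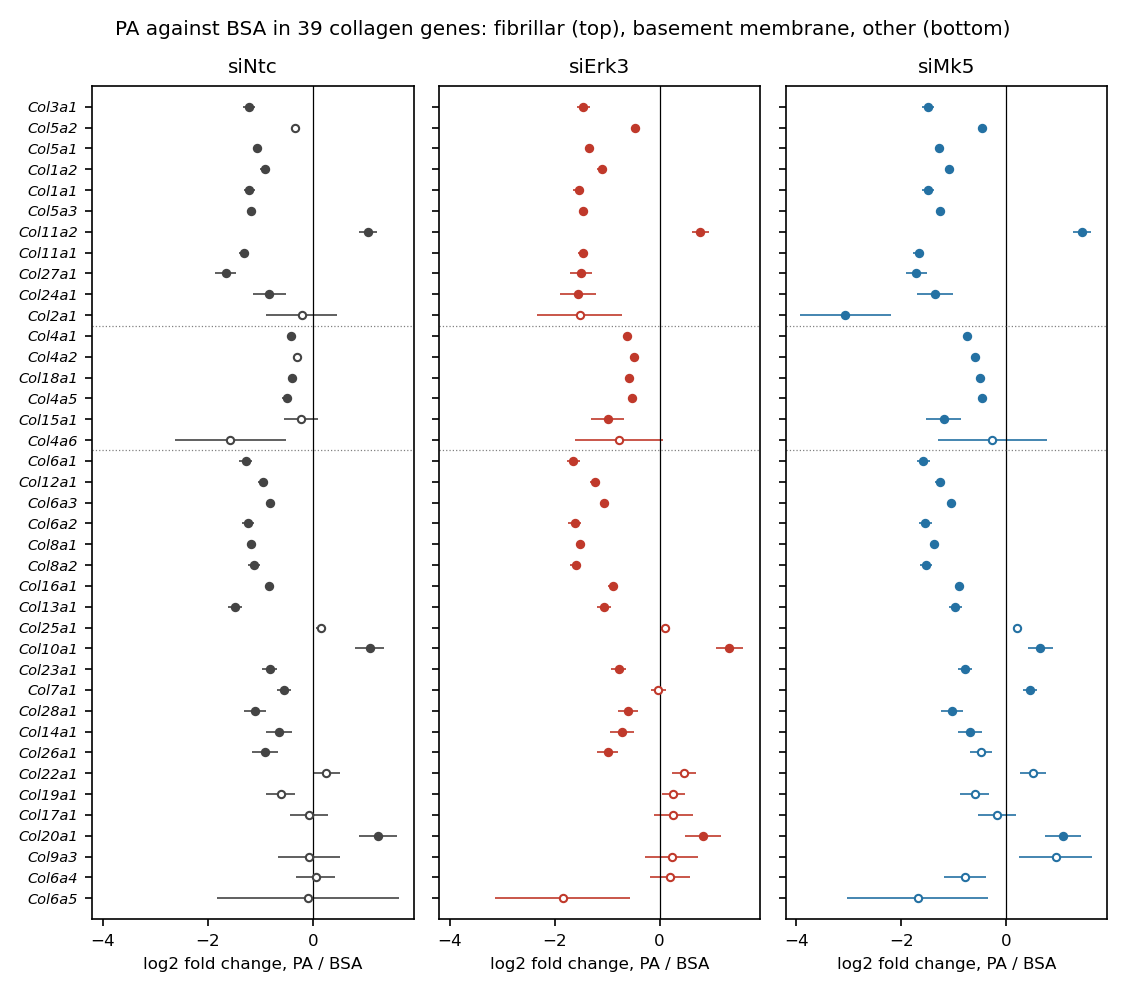
Log2 change of each collagen gene with PA against BSA in siNtc, siErk3 and siMk5, with bars for the standard error and filled points for genes called (adjusted p under 0.05 and fold over 1.3). Most filled points lie left of 0, and the filled points right of 0 in all 3 states are Col10a1, Col11a2 and Col20a1.

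The summed level of the 39 genes was between 23112 and 28632 CPM in the 9 BSA libraries and between 10008 and 14435 CPM in the 9 PA libraries, without overlap. The mean sum with PA was 52.5% of that with BSA in siNtc, 45.1% in siErk3 and 44.9% in siMk5. Fibrillar genes stood at 50.3%, 43.6% and 43.6% of their BSA sum and the other types at 49.5%, 40.5% and 41%. Basement membrane genes kept more, at 77.1%, 67.3% and 64.9%. As a share of all counts, collagens made up 2.27% to 2.79% with BSA and 0.984% to 1.42% with PA.

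**Figure D3:**
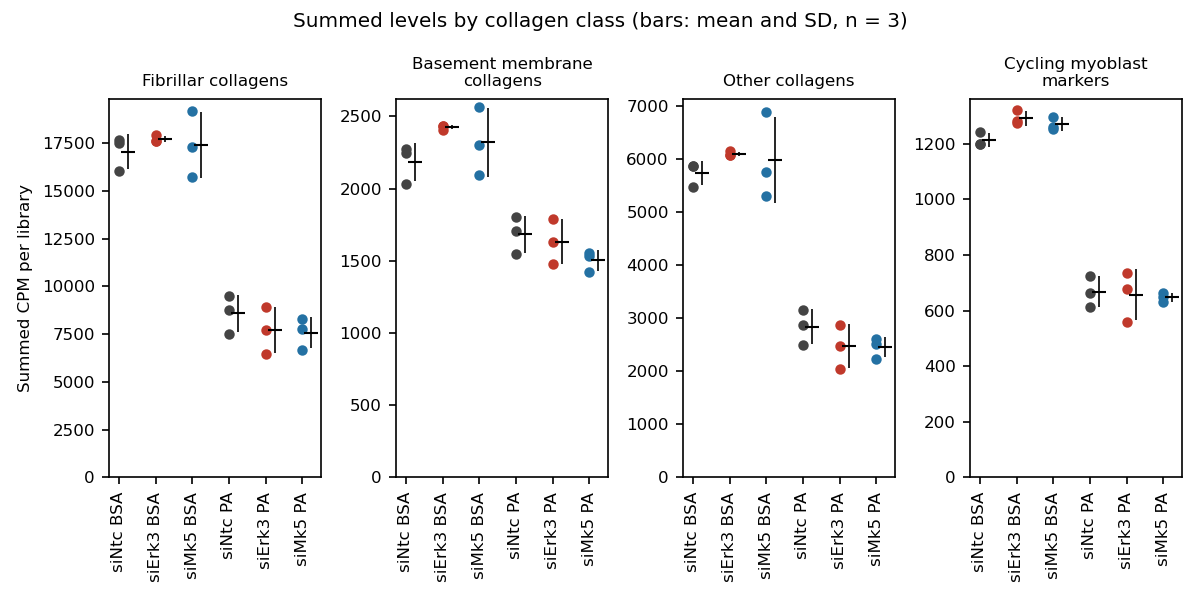
Summed CPM of the fibrillar, basement membrane and other collagen genes, and of 10 markers of cycling myoblasts, in each library of the 6 groups, with bars for the mean and SD of 3 libraries. In each panel and silencing state the PA libraries lie below the BSA libraries, with the basement membrane genes at 64.9% to 77.1% of their BSA mean.

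Markers of other cell states moved in the same libraries. The 10 markers of cycling myoblasts summed to 1198 to 1323 CPM with BSA and 558 to 736 CPM with PA, with 7, 8 and 8 of 10 called lower in siNtc, siErk3 and siMk5 and none higher. Within the PA groups their sums were 726, 663 and 614 CPM in siNtc libraries 1 to 3, 558, 679 and 736 CPM in siErk3, and 632, 648 and 662 CPM in siMk5. The collagen sums of the same libraries were 14435, 13328 and 11565 CPM, 10008, 11854 and 13597 CPM, and 10334, 11802 and 12487 CPM, which is the same order within each PA group. Within the BSA groups the order was not the same: the marker sums were 1200.3, 1198 and 1242 CPM in siNtc, 1281, 1273 and 1323 CPM in siErk3, and 1262, 1298 and 1254 CPM in siMk5. The collagen sums of those libraries were 23534, 25765 and 25639 CPM, 26129, 26377 and 26204 CPM, and 23112, 25379 and 28632 CPM. The 12 myotube markers summed to 10585 to 13283 CPM with BSA and 10028 to 11671 CPM with PA, with 6, 3 and 3 called lower and none higher. The 8 fibroblast markers summed to 156 to 222 CPM with BSA and 103 to 183 CPM with PA, with 4, 4 and 5 called lower and 1, 1 and 0 higher. Beside these marker counts, 15.1%, 16.3% and 14.6% of all genes were called lower and 15.5%, 15.8% and 15.1% higher. In bulk RNA, fewer cells of a type and less RNA per cell cannot be told apart. The part of these markers in the collagen differences was not tested.

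Among the fibrillar genes, the chains of types I, III and V carried most of the collagen signal and were lower with PA. Col3a1 (ENSMUSG00000026043) with BSA was 7396, 8081 and 8009 CPM in siNtc, 7493, 7754 and 7592 CPM in siErk3, and 7141, 7904 and 9192 CPM in siMk5. Col3a1 with PA was 3868, 3478 and 2762 CPM in siNtc, 2087, 2776 and 3468 CPM in siErk3, and 2410.2, 2957 and 3268 CPM in siMk5. Every PA library lay below every BSA library. The log2 change of Col3a1 was -1.22 ± 0.12 (SE, adjusted p = 5.03e-10) in siNtc, -1.45 ± 0.12 (SE, adjusted p = 1.02e-11) in siErk3 and -1.49 ± 0.12 (SE, adjusted p = 7.57e-12) in siMk5, a fall of 2.32-fold, 2.74-fold and 2.81-fold.

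Type I collagen, the main collagen of tendon, skin and bone, joins 2 chains of Col1a1 with 1 of Col1a2. Col1a1 stood with BSA at 1366, 1586 and 1508 CPM in siNtc, 1685, 1698 and 1655 CPM in siErk3, and 1328, 1444 and 1549 CPM in siMk5. Col1a1 stood with PA at 725, 652 and 541 CPM in siNtc, 476, 581 and 675 CPM in siErk3, and 406, 547 and 585 CPM in siMk5. Col1a2 stood with BSA at 2706, 2942 and 2921 CPM in siNtc, 3137, 3112 and 3050.2 CPM in siErk3, and 2633, 2847 and 3174 CPM in siMk5. Neither type I gene had a PA library within the range of its BSA libraries. Col1a2 stood with PA at 1649.8, 1534 and 1343 CPM in siNtc, 1222, 1446 and 1650.0 CPM in siErk3, and 1203, 1401 and 1470.3 CPM in siMk5. The log2 change of Col1a1 was -1.22 ± 0.10 in siNtc, -1.54 ± 0.11 in siErk3 and -1.49 ± 0.11 in siMk5 (SE), and that of Col1a2 was -0.92 ± 0.08 in siNtc, -1.11 ± 0.08 in siErk3 and -1.09 ± 0.08 in siMk5.

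Type V collagen sits inside type I fibrils and sets their width, and the log2 change of Col5a2 was smaller in size than those of Col5a1 and Col5a3, a difference that was not tested. Col5a1 was counted with BSA at 2008, 2332 and 2326 CPM in siNtc, 2444, 2460.2 and 2469.7 CPM in siErk3, and 2085, 2368 and 2398 CPM in siMk5. Col5a1 was counted with PA at 1137, 1072 and 959 CPM in siNtc, 855, 948 and 1102 CPM in siErk3, and 848, 949 and 1038 CPM in siMk5. The Col5a1 log2 change was -1.07 ± 0.08 in siNtc, -1.34 ± 0.08 in siErk3 and -1.27 ± 0.08 in siMk5, all called. Col5a2 was counted with BSA at 2283, 2410.3 and 2430.4 CPM in siNtc, 2536, 2529 and 2527 CPM in siErk3, and 2266, 2462 and 2573 CPM in siMk5. Col5a2 was counted with PA at 1951, 1885 and 1793 CPM in siNtc, 1726, 1859 and 1892 CPM in siErk3, and 1693, 1779 and 1822 CPM in siMk5. Its libraries did not overlap either, but its log2 change was smaller, -0.34 ± 0.05 (SE, adjusted p = 4.56e-07) in siNtc, -0.47 ± 0.05 (SE, adjusted p = 7.42e-10) in siErk3 and -0.46 ± 0.05 (SE, adjusted p = 1.22e-09) in siMk5. In siNtc the fall was 1.27-fold, under the fold limit, so Col5a2 was called in siErk3 and siMk5 alone. Col5a3, the scarcer type V chain, read 244, 275 and 279.7 CPM in siNtc, 309.5, 327 and 311 CPM in siErk3, and 242, 277 and 273 CPM in siMk5 with BSA. It read 126, 118 and 109.5 CPM in siNtc, 101, 113 and 131 CPM in siErk3, and 99.2, 114 and 119.7 CPM in siMk5 with PA. The log2 change of Col5a3 was -1.18 ± 0.07 in siNtc, -1.46 ± 0.07 in siErk3 and -1.25 ± 0.07 in siMk5, called in all 3 states.

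The minor fibrillar genes were measured at far lower levels and included the 1 fibrillar gene that rose. Col11a1 and Col11a2 encode chains of type XI, best known from cartilage, where it starts the fibrils of type II. Col11a1 with BSA read 12.2, 13.8 and 14.3 CPM in siNtc, 13.6, 13.5 and 13.9 CPM in siErk3, and 12.8, 12.7 and 13.6 CPM in siMk5, and with PA 5.53, 5.52 and 5.15 CPM in siNtc, 4.42, 4.85 and 5.71 CPM in siErk3, and 3.96, 3.82 and 4.54 CPM in siMk5. The Col11a1 log2 change was -1.32 ± 0.10 in siNtc, -1.46 ± 0.09 in siErk3 and -1.67 ± 0.10 in siMk5. Col11a2 with BSA read 5.48, 5.17 and 4.07 CPM in siNtc, 5.58, 4.85 and 5.44 CPM in siErk3, and 4.40, 3.12 and 3.199 CPM in siMk5, and with PA 7.56, 10.2 and 12.5 CPM in siNtc, 11.3, 8.07 and 7.79 CPM in siErk3, and 11.4, 9.22 and 8.77 CPM in siMk5. All 9 PA libraries of Col11a2 lay above all 9 BSA libraries, and its log2 change was 1.05 ± 0.17 (SE, adjusted p = 4.15e-06) in siNtc, 0.77 ± 0.16 (SE, adjusted p = 0.000125) in siErk3 and 1.45 ± 0.18 (SE, adjusted p = 3.31e-08) in siMk5. The 2 type XI genes therefore moved in opposite directions in every silencing state.

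Col27a1 and Col24a1 encode fibrillar chains of developing skeleton. Col27a1 in BSA gave 6.53, 6.25 and 6.10 CPM in siNtc, 5.32, 4.77 and 3.43 CPM in siErk3, and 4.54, 5.84 and 7.12 CPM in siMk5, and in PA 2.25, 1.96 and 1.72 CPM in siNtc, 1.01, 1.77 and 1.99 CPM in siErk3, and 1.26, 2.00 and 2.06 CPM in siMk5. Its log2 change, -1.66 ± 0.20 in siNtc, -1.49 ± 0.21 in siErk3 and -1.71 ± 0.21 in siMk5, was the most negative of the fibrillar genes in siNtc. Col24a1 in BSA gave 1.48, 1.63 and 1.23 CPM in siNtc, 1.10, 1.35 and 1.32 CPM in siErk3, and 1.22, 1.31 and 1.29 CPM in siMk5, and in PA 1.03, 1.09 and 0.253 CPM in siNtc, 0.438, 0.326 and 0.546 CPM in siErk3, and 0.584, 0.280 and 0.619 CPM in siMk5. The Col24a1 log2 change was -0.83 ± 0.31 in siNtc, -1.55 ± 0.34 in siErk3 and -1.36 ± 0.35 in siMk5, and the call in siNtc was lost without siNtc BSA library 2 (-0.73 ± 0.36, adjusted p = 0.111) or siNtc PA library 3 (-0.46 ± 0.27, adjusted p = 0.19), the library with 5 reads. In siMk5 it was lost with the 18S share as a covariate (-1.18 ± 0.56, adjusted p = 0.12). Col2a1, the cartilage collagen, had only a few reads per library. Its counts with BSA were 2, 5 and 5 in siNtc, 7, 1 and 5 in siErk3, and 5, 4 and 10 in siMk5, and with PA 3, 3 and 5 in siNtc, 2, 2 and 0 in siErk3, and 0, 1 and 1 in siMk5. It was called lower in siMk5, where 19 reads with BSA stood against 2 with PA.

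The sequences just upstream of 7 collagen genes are shown to set genes that fell with PA beside genes that rose. They come from RefSeq windows of 250 bases before and 50 after a gene's start on GRCm38.p6. Of 39 genes, 31 had a window (33 windows), and all windows matched GRCm39 exactly once, so positions below are on GRCm39. Only the stretch free of annotated exons is printed, 5′ to 3′ on the gene's strand, with capitals, on either strand, for the CCAAT box (bases CCAAT), for the core of the GC box (bases GGGCGG) and for the TATA element (bases TATAA). Genes called lower in all 3 states come first: Col3a1 at chr1:45350448-45350697 (plus strand), Col5a1 at chr2:27776187-27776396 (plus), Col1a2 at chr6:4505370-4505492 (plus, between exons of the annotated gene) and Col8a1 at chr16:57575101-57575350 (minus).
Col3a1: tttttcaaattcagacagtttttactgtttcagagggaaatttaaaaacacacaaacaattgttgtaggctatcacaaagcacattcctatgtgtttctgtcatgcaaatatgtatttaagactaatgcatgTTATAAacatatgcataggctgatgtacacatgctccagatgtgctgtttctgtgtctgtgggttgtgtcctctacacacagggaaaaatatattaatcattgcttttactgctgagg
Col5a1: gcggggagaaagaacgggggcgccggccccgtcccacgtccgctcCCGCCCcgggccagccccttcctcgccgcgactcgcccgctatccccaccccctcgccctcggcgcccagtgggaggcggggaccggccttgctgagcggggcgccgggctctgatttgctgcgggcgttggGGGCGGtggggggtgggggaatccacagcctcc
Col1a2: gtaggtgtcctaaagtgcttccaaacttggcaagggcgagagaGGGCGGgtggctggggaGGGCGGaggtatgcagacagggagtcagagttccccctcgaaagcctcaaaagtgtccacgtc
Col8a1: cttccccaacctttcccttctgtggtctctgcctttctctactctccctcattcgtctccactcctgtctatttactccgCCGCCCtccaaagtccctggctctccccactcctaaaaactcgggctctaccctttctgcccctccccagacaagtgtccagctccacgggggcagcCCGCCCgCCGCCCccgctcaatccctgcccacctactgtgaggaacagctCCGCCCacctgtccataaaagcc
Genes called higher in all 3 states follow: Col10a1 at chr10:34265727-34265970 (plus) and Col11a2 at chr17:34257862-34258107 (plus). Col7a1, at chr9:108782404-108782646 (plus), changed in opposite directions in siNtc and siMk5.
Col10a1: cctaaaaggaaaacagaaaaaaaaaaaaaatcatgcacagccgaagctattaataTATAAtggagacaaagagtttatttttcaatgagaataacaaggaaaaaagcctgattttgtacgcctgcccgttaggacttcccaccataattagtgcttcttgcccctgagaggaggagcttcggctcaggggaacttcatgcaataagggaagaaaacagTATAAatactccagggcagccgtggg
Col11a2: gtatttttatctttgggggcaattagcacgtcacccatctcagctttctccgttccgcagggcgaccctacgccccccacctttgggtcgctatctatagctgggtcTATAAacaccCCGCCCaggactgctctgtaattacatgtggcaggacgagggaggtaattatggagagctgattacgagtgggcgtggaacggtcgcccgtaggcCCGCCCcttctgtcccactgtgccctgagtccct
Col7a1: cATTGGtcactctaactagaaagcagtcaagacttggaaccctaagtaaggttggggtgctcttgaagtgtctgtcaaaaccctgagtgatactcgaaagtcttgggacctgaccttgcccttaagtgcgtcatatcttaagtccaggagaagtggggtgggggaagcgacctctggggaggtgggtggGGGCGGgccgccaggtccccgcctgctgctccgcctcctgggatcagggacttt
In the stretches shown, GGGCGG is present upstream of Col5a1, Col1a2, Col8a1, Col11a2 and Col7a1 and absent from those of Col3a1 and Col10a1. TATAA is present in those of Col3a1, Col10a1 and Col11a2, at 32 bases before the start in Col10a1. Over whole windows, GGGCGG occurred in 63.6% of the 33 collagen windows and 35.7% of all 32851 windows. CCAAT occurred in 36.4% and 37.4%, and TATAA in 18.2% and 24.9%. These matches describe letters in a window and are not evidence of bound factors.

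Basement membrane genes fell less than fibrillar genes by their medians, -0.41, -0.60 and -0.55 on the log2 scale in siNtc, siErk3 and siMk5 against -1.07, -1.46 and -1.36, and this difference between the classes was not tested. Of 6 genes, 3, 5 and 5 were called lower and none higher, where 15.1%, 16.3% and 14.6% of all genes were called lower. Col4a1 and Col4a2 encode the chains of the most common type IV molecule, the scaffold of nearly all basement membranes. Col4a1 measured 868, 911 and 921 CPM in siNtc, 962, 947 and 939 CPM in siErk3, and 827, 904 and 1117 CPM in siMk5 with BSA. Col4a1 measured 729.9, 686 and 603 CPM in siNtc, 545, 608 and 701 CPM in siErk3, and 531, 583 and 586 CPM in siMk5 with PA. The Col4a1 log2 change was -0.42 ± 0.08 in siNtc, -0.62 ± 0.08 in siErk3 and -0.74 ± 0.08 in siMk5, and without siNtc PA library 3 the value in siNtc, -0.37 ± 0.08, fell under the fold limit. Col4a2 measured 598, 702 and 695 CPM in siNtc, 744, 729 and 738 CPM in siErk3, and 613, 681 and 790.2 CPM in siMk5 with BSA. Col4a2 measured 592, 544 and 483 CPM in siNtc, 471, 527 and 573 CPM in siErk3, and 431, 470.2 and 485 CPM in siMk5 with PA. The Col4a2 log2 change was -0.30 ± 0.08 in siNtc, -0.49 ± 0.08 in siErk3 and -0.59 ± 0.08 in siMk5, and the change in siNtc (adjusted p = 0.00147) was under the fold limit. In neither gene did a PA library reach a BSA library of the same siRNA.

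Col18a1, whose C-terminal fragment is endostatin, came to 548, 615 and 636 CPM in siNtc, 706, 711 and 734 CPM in siErk3, and 633, 695 and 635 CPM in siMk5 with BSA. It came to 464, 459 and 446 CPM in siNtc, 447, 482 and 499 CPM in siErk3, and 444, 467 and 471 CPM in siMk5 with PA, with no overlap. The log2 change of Col18a1 was -0.39 ± 0.05 in siNtc, -0.59 ± 0.05 in siErk3 and -0.51 ± 0.05 in siMk5; without siNtc BSA library 3 the value in siNtc was -0.38 ± 0.06, and with the 18S share as a covariate the value in siMk5 was -0.35 ± 0.07, both under the fold limit. Col4a5, a chain of the type IV network of kidney and other specialised basement membranes, came to 17.9, 19.2 and 19.6 CPM in siNtc, 19.1, 19.2 and 21.4 CPM in siErk3, and 18.8, 18.7 and 19.2 CPM in siMk5 with BSA. It came to 13.4, 14.4 and 12.4 CPM in siNtc, 13.1, 14.8 and 13.7 CPM in siErk3, and 13.1, 13.7 and 14.5 CPM in siMk5 with PA, and its log2 change was -0.50 ± 0.08 in siNtc, -0.52 ± 0.07 in siErk3 and -0.46 ± 0.08 in siMk5, called in each state. Col4a6, its head-to-head neighbour, had 9, 13 and 6 reads with BSA and 3, 7 and 5 with PA in siNtc, siErk3 and siMk5, and was called in none.

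Col15a1, a relative of Col18a1, was scarce. It came with BSA to 1.48, 1.67 and 1.80 CPM in siNtc, 2.37, 1.52 and 1.82 CPM in siErk3, and 1.35, 1.46 and 3.04 CPM in siMk5, and with PA to 1.48, 1.73 and 1.01 CPM in siNtc, 0.438, 0.905 and 1.59 CPM in siErk3, and 1.08, 0.745 and 0.671 CPM in siMk5. The Col15a1 log2 change was -0.23 ± 0.32 in siNtc, -0.99 ± 0.31 in siErk3 and -1.19 ± 0.34 in siMk5, called in siErk3 and siMk5. The groups overlapped in siNtc and siErk3. In siErk3 the call was lost without BSA library 1 (-0.82, adjusted p = 0.0607) or PA library 1 (-0.68, adjusted p = 0.0677), and in siMk5 without BSA library 3 (-0.74, adjusted p = 0.0975). With the 18S share as a covariate it was lost in siErk3 (-0.93, adjusted p = 0.057) and in siMk5 (-1.31, adjusted p = 0.0742).

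Type VI collagen forms the beaded filaments that tie muscle fibres to their surroundings, from 1 chain each of Col6a1, Col6a2 and Col6a3, and its 3 main genes fell. Col6a1 amounted to 812, 935 and 921 CPM in siNtc, 932, 933 and 938 CPM in siErk3, and 809.6, 891 and 1098 CPM in siMk5 with BSA. Col6a1 amounted to 415, 376 and 305 CPM in siNtc, 219.7, 302 and 377 CPM in siErk3, and 267, 326 and 341 CPM in siMk5 with PA. Its log2 change, -1.28 ± 0.12 (SE, adjusted p = 2.55e-10) in siNtc, -1.64 ± 0.12 (SE, adjusted p = 1.18e-12) in siErk3 and -1.58 ± 0.12 (SE, adjusted p = 3.42e-12) in siMk5, was a fall of 2.44-fold, 3.12-fold and 2.99-fold. Col6a2 amounted to 519, 624 and 610.4 CPM in siNtc, 612, 618 and 611 CPM in siErk3, and 517, 607 and 741 CPM in siMk5 with BSA. Col6a2 amounted to 285, 249 and 211 CPM in siNtc, 153, 203 and 244 CPM in siErk3, and 182, 217 and 241 CPM in siMk5 with PA. The Col6a2 log2 change was -1.24 ± 0.12 in siNtc, -1.62 ± 0.12 in siErk3 and -1.54 ± 0.12 in siMk5, near that of Col6a1. Col6a3 amounted to 1017, 1074 and 1096 CPM in siNtc, 1173, 1172 and 1163 CPM in siErk3, and 1027, 1120.2 and 1146 CPM in siMk5 with BSA. Col6a3 amounted to 666, 598 and 535 CPM in siNtc, 492, 561 and 639 CPM in siErk3, and 481, 539.8 and 575 CPM in siMk5 with PA. The Col6a3 log2 change was smaller in size, -0.82 ± 0.07 in siNtc, -1.05 ± 0.07 in siErk3 and -1.05 ± 0.07 in siMk5. None of the 3 had overlapping groups. Col6a4 and Col6a5, alternative type VI chains, had 18 to 31 and 1 to 5 reads per group and were called in none.

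The FACIT collagens, which bind to the surface of fibrils, fell where they were well measured. Col12a1, found in tendon and around muscle, was 2476, 2549 and 2564 CPM in siNtc, 2610.3, 2591 and 2676 CPM in siErk3, and 2302, 2462 and 3138 CPM in siMk5 with BSA. Col12a1 was 1437, 1322 and 1158 CPM in siNtc, 920.0, 1130.0 and 1290.5 CPM in siErk3, and 1032, 1124 and 1136 CPM in siMk5 with PA. The Col12a1 log2 change was -0.95 ± 0.09 in siNtc, -1.24 ± 0.09 in siErk3 and -1.26 ± 0.09 in siMk5. Col16a1, a FACIT-like collagen, was 47.3, 51.4 and 53.1 CPM in siNtc, 46.6, 50.2 and 46.0 CPM in siErk3, and 50.02, 50.6 and 53.7 CPM in siMk5 with BSA. Col16a1 was 32.0, 30.1 and 23.2 CPM in siNtc, 22.6, 26.5 and 27.7 CPM in siErk3, and 24.05, 29.2 and 30.0 CPM in siMk5 with PA. The Col16a1 log2 change was -0.83 ± 0.09 in siNtc, -0.89 ± 0.09 in siErk3 and -0.89 ± 0.09 in siMk5. For both genes all 9 PA libraries lay below all 9 BSA libraries.

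Col14a1 was under 1 CPM per kb and less certain. Col14a1 gave 2.74, 2.25 and 2.32 CPM in siNtc, 2.83, 1.60 and 2.83 CPM in siErk3, and 2.44, 2.47 and 3.25 CPM in siMk5 with BSA. Col14a1 gave 1.44, 1.96 and 1.16 CPM in siNtc, 1.31, 1.59 and 1.54 CPM in siErk3, and 1.26, 1.44 and 2.37 CPM in siMk5 with PA. The log2 change was -0.65 ± 0.24 in siNtc, -0.71 ± 0.23 in siErk3 and -0.69 ± 0.23 in siMk5, and the groups did not overlap within any silencing state. The call was lost in siNtc without BSA library 1, PA library 1 or PA library 3 (-0.61 to -0.52, adjusted p = 0.0751 to 0.114). It was lost in siErk3 without BSA library 1 or 3 (-0.61 and -0.58, adjusted p = 0.0575 and 0.074), and in siMk5 without BSA library 3, PA library 1 or PA library 2 (-0.60 to -0.53, adjusted p = 0.0693 to 0.0969) or with the 18S share as a covariate (-0.65 ± 0.38, adjusted p = 0.23).

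Col20a1, another FACIT, was higher with PA but rested on few reads. Its counts with BSA were 3, 10 and 7 in siNtc, 11, 6 and 11 in siErk3, and 13, 5 and 8 in siMk5, and with PA 14, 18 and 19 in siNtc, 13, 20 and 14 in siErk3, and 23, 19 and 14 in siMk5. In CPM it was 0.211, 0.417 and 0.331 CPM in siNtc, 0.465, 0.253 and 0.394 CPM in siErk3, and 0.567, 0.252 and 0.413 CPM in siMk5 with BSA and 0.630, 0.821 and 0.960 CPM in siNtc, 0.569, 0.724 and 0.695 CPM in siErk3, and 1.03, 0.885 and 0.722 CPM in siMk5 with PA, and all 9 PA libraries lay above all 9 BSA libraries. The log2 change was 1.24 ± 0.37 (SE, adjusted p = 0.00565) in siNtc, 0.83 ± 0.34 (SE, adjusted p = 0.0474) in siErk3 and 1.08 ± 0.34 (SE, adjusted p = 0.00947) in siMk5. The call in siErk3 was lost when any 1 of 5 libraries was left out (BSA 2 and 3, PA 1, 2 and 3, adjusted p = 0.0566 to 0.184) and under DESeq2 (0.84 ± 0.45, adjusted p = 0.116). It was also lost with the 18S share as a covariate (adjusted p = 0.161) and with only the libraries compared (adjusted p = 0.0547). The call in siMk5 was lost without BSA library 2 (adjusted p = 0.0623) or PA library 1 (adjusted p = 0.0565), and with the 18S covariate (adjusted p = 0.124).

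Network-forming collagens split. Type VIII, of Descemet's membrane and vessel walls, has the chains Col8a1 and Col8a2. Col8a1 registered 420.3, 432 and 425 CPM in siNtc, 467, 486 and 484 CPM in siErk3, and 411, 432 and 481 CPM in siMk5 with BSA. Col8a1 registered 215, 184 and 162 CPM in siNtc, 151, 165 and 185 CPM in siErk3, and 157, 174 and 178 CPM in siMk5 with PA, and its log2 change was -1.19 ± 0.07 in siNtc, -1.52 ± 0.07 in siErk3 and -1.38 ± 0.07 in siMk5. Col8a2 registered 130.0, 147 and 145 CPM in siNtc, 180.5, 173 and 177 CPM in siErk3, and 128, 137 and 177 CPM in siMk5 with BSA. Col8a2 registered 71.6, 64.1 and 57.6 CPM in siNtc, 45.2, 57.9 and 72.2 CPM in siErk3, and 44.5, 51.9 and 56.2 CPM in siMk5 with PA, and its log2 change was -1.13 ± 0.11 in siNtc, -1.60 ± 0.11 in siErk3 and -1.53 ± 0.11 in siMk5. Both type VIII genes fell in all 3 states with no overlap.

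Col10a1, the collagen of hypertrophic cartilage, rose instead. Col10a1 registered 1.40, 1.96 and 1.28 CPM in siNtc, 1.69, 1.39 and 1.68 CPM in siErk3, and 4.10, 1.91 and 2.27 CPM in siMk5 with BSA. Col10a1 registered 3.15, 3.60 and 3.23 CPM in siNtc, 5.17, 3.80 and 2.98 CPM in siErk3, and 4.36, 2.84 and 6.14 CPM in siMk5 with PA. The groups did not overlap in siNtc and siErk3 and did in siMk5, where BSA library 1 stood at 4.10 CPM. The Col10a1 log2 change was 1.08 ± 0.28 (SE, adjusted p = 0.00202) in siNtc, 1.33 ± 0.26 (SE, adjusted p = 5.45e-05) in siErk3 and 0.65 ± 0.24 (SE, adjusted p = 0.0265) in siMk5. The call in siMk5 was lost without BSA library 2 (0.45, adjusted p = 0.175), BSA library 3 (0.53, adjusted p = 0.115), PA library 1 (0.65, adjusted p = 0.0534) or PA library 3 (0.36, adjusted p = 0.264).

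Transmembrane collagens stay anchored in the cell membrane and can be shed. Col13a1, found at the neuromuscular junction, scored 10.9, 9.83 and 10.3 CPM in siNtc, 6.25, 6.66 and 6.87 CPM in siErk3, and 8.46, 9.31 and 7.79 CPM in siMk5 with BSA. Col13a1 scored 3.51, 3.65 and 3.89 CPM in siNtc, 3.90, 2.75 and 2.93 CPM in siErk3, and 3.91, 3.68 and 5.57 CPM in siMk5 with PA. Its log2 change with PA was -1.48 ± 0.13 in siNtc, -1.05 ± 0.14 in siErk3 and -0.97 ± 0.13 in siMk5, called in each state. Col23a1 scored 4.92, 5.92 and 7.23 CPM in siNtc, 5.11, 5.14 and 5.01 CPM in siErk3, and 7.63, 9.36 and 6.29 CPM in siMk5 with BSA. Col23a1 scored 3.24, 3.42 and 3.69 CPM in siNtc, 2.89, 3.04 and 2.93 CPM in siErk3, and 4.13, 4.61 and 4.85 CPM in siMk5 with PA. The Col23a1 log2 change was -0.83 ± 0.15 in siNtc, -0.78 ± 0.15 in siErk3 and -0.78 ± 0.13 in siMk5, called in each state, and with the 18S share as a covariate the value in siMk5 was -0.35 ± 0.20 (adjusted p = 0.218). Col25a1, which acts in motor innervation of muscle, was not called in any state: its log2 change was 0.16 ± 0.09 in siNtc, 0.11 ± 0.09 in siErk3 and 0.21 ± 0.09 in siMk5, with overlapping groups.

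Of the remaining types, Col28a1, a collagen of peripheral nerve, came out at 3.30, 2.79 and 2.55 CPM in siNtc, 2.24, 2.28 and 2.79 CPM in siErk3, and 2.83, 2.97 and 2.63 CPM in siMk5 with BSA. Col28a1 came out at 1.44, 1.32 and 1.16 CPM in siNtc, 1.18, 1.45 and 2.28 CPM in siErk3, and 1.21, 1.26 and 1.65 CPM in siMk5 with PA. The Col28a1 log2 change was -1.11 ± 0.21 in siNtc, -0.61 ± 0.19 in siErk3 and -1.04 ± 0.21 in siMk5, called in each state; in siErk3, where the groups overlapped, the call was lost without BSA library 3 (-0.50, adjusted p = 0.0716), PA library 1 (-0.45, adjusted p = 0.0726) or PA library 2 (-0.54, adjusted p = 0.0546). In siMk5 it was lost with the 18S share as a covariate (-0.84, adjusted p = 0.0566). Col26a1 came out at 1.33, 1.38 and 1.51 CPM in siNtc, 2.03, 2.32 and 2.65 CPM in siErk3, and 1.53, 2.06 and 1.70 CPM in siMk5 with BSA. Col26a1 came out at 0.765, 0.866 and 0.606 CPM in siNtc, 1.36, 1.09 and 1.09 CPM in siErk3, and 1.17, 1.12 and 1.496 CPM in siMk5 with PA. The Col26a1 log2 change was -0.91 ± 0.25 in siNtc, -0.99 ± 0.19 in siErk3 and -0.48 ± 0.21 in siMk5, called in siNtc and siErk3 only. Col17a1, Col19a1, Col22a1 and Col9a3 were under 0.2 CPM per kb and called in no PA comparison.

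The chains of 1 molecule did not all keep their ratio of CPM per kb, given here as a description without a test. The size of a ratio depends on the annotated exon lengths, for example 4380 bases for Col6a1 and 8326 for Col6a2. Only its difference between BSA and PA is read here. Col1a1 over Col1a2 was 0.924 to 1.03 in the 9 BSA libraries and 0.639 to 0.832 in the 9 PA libraries. Col5a1 over Col5a2 was 0.986 to 1.09 in the 9 BSA libraries and 0.555 to 0.653 in the 9 PA libraries. Col4a1 over Col4a2 was 1.13 to 1.29 in the 9 BSA libraries and 1.02 to 1.12 in the 9 PA libraries. In these 3 pairs the ranges did not overlap, and the first chain was relatively scarcer with PA. Col6a1 over Col6a3 was 2.15 to 2.62 in the 9 BSA libraries and 1.22 to 1.72 in the 9 PA libraries, again apart. Col6a1 over Col6a2 was 2.79 to 2.98 in the 9 BSA libraries and 2.69 to 2.94 in the 9 PA libraries. Col8a1 over Col8a2 was 1.48 to 1.85 in the 9 BSA libraries and 1.47 to 2.02 in the 9 PA libraries. These last 2 ranges overlapped. Between molecules, Col3a1 over Col1a1 was 2.97 to 3.97 in the 9 BSA libraries and 2.93 to 3.97 in the 9 PA libraries, also with overlap.

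**Figure D4:**
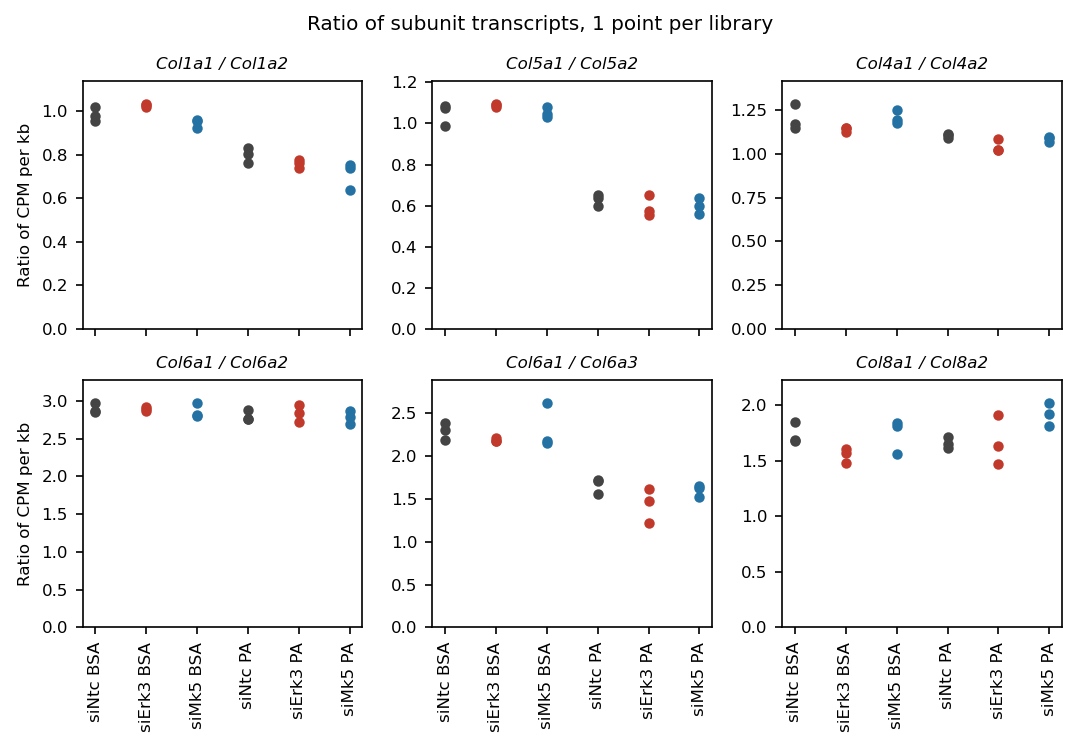
Ratio of CPM per kb between collagen chains in each of the 18 libraries by group, 1 point per library. Col5a1 over Col5a2 lies at 0.986 to 1.09 with BSA and 0.555 to 0.653 with PA, and Col6a1 over Col6a2 overlaps between BSA and PA.

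Few collagen genes were called under silencing. With BSA, 1 of 39 collagen genes was called in siErk3 against siNtc, where 0.785% of all genes were called. None was called in siMk5 against siNtc by edgeR or DESeq2, where edgeR called 0.0643% of all genes. At an unadjusted p under 0.05 there were 6 collagen genes by each tool. With PA, none was called by either tool in siErk3, where edgeR called 0.556% of all genes, or in siMk5, where it called 0.547%. At an unadjusted p under 0.05 there were 9 collagen genes by edgeR and 5 by DESeq2 in siErk3, and 14 and 12 in siMk5. The share of all genes at an unadjusted p under 0.05 was not computed, so these unadjusted counts have no background beside them. For the 15 most abundant genes the log2 differences from siNtc lay between -0.04 and 0.33 in siErk3 and between -0.05 and 0.12 in siMk5 with BSA, with 14 and 13 of 15 above 0. Of all 21772 genes, 11951 and 11733 lay above 0. With PA the differences of these 15 genes lay between -0.31 and 0.06 in siErk3 and between -0.34 and 0.01 in siMk5, with 14 of 15 under 0 in each. Of all 21772 genes, 11121 and 10690 lay under 0. At each of BSA and PA, the 2 comparisons share the siNtc libraries. The 15 genes were measured in the same libraries, so their signs are not independent and were not tested as a set. The count in siErk3 with PA rested on single libraries: without siErk3 PA library 3, Col3a1, Col6a1 and Col6a2 were called lower, and without siNtc PA library 3, Col24a1 was. Without siNtc PA library 3, Col1a1 was called lower in siMk5 with PA. Of 12 myotube markers, 3 were called higher in siErk3 than in siNtc with BSA: Myh8, Actn2 and Myh3 (log2 differences 0.57, 0.48 and 0.39). The other 9 were not called, and of all 12, 7 lay above 0 and 5 below. With PA, Myh8 and Actn2 were called higher (0.60 and 0.42) and 10 were not called, with 10 above 0 and 2 below. Of all genes, 0.588% were called higher with BSA and 0.432% with PA. Of 8 fibroblast markers, 1 was called higher in siErk3 with PA and 1 lower in siMk5 with PA. The part of these markers in the collagen values was not tested.

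The response to PA was compared between silenced and control cells by an interaction term. For siErk3 no collagen gene was called by edgeR or DESeq2, where edgeR called 0.0367% of all genes. At an unadjusted p under 0.05 there were 13 collagen genes by edgeR and 7 by DESeq2. The share of all genes at that unadjusted limit was not computed. Col8a2 was called without siErk3 PA library 3. For siMk5, 1 gene was called, where 0.211% of all genes were. All 15 abundant genes had an interaction below 0 in both, between -0.47 and -0.13 for siErk3 and between -0.40 and -0.08 for siMk5, none of which passed. Of all 21772 genes, 12165 and 11739 lay below 0. The 15 genes come from the same libraries, so their signs are not independent. The 2 interactions share the siNtc libraries.

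Col13a1 was the gene called in siErk3 with BSA. Its libraries, at 6.25, 6.66 and 6.87 CPM in siErk3 and 10.9, 9.83 and 10.3 CPM in siNtc, did not overlap, and the log2 difference was -0.64 ± 0.12 (SE, adjusted p = 0.00153). With PA the difference was -0.21 ± 0.16 (SE, adjusted p = 0.794). In siMk5 it was -0.27 ± 0.11 with BSA and 0.24 ± 0.15 with PA, neither called. With the 18S share as a covariate, the siErk3 difference was -0.57 ± 0.14 (adjusted p = 0.0535).

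Col7a1, the anchoring fibril collagen that fixes the epidermis to the dermis, was the gene whose response to PA differed in siMk5. Col7a1 registered 6.67, 6.33 and 7.66 CPM in siNtc, 5.15, 4.98 and 4.54 CPM in siErk3, and 5.36, 5.23 and 3.66 CPM in siMk5 with BSA. Col7a1 registered 4.18, 4.70 and 5.20 CPM in siNtc, 5.52, 4.85 and 3.97 CPM in siErk3, and 6.88, 6.62 and 6.09 CPM in siMk5 with PA. It lay lower with PA in siNtc and higher in siMk5, without overlap in either, and the siErk3 groups overlapped. The Col7a1 log2 change was -0.56 ± 0.14 (SE, adjusted p = 0.000964) in siNtc, -0.02 ± 0.13 (SE, adjusted p = 0.921) in siErk3 and 0.45 ± 0.14 (SE, adjusted p = 0.00652) in siMk5. The interaction was 1.01 ± 0.19 (SE, adjusted p = 0.0101) for siMk5 and 0.54 ± 0.19 (SE, adjusted p = 0.598) for siErk3. Against siNtc with BSA, Col7a1 differed by -0.50 ± 0.13 (SE, adjusted p = 0.0541) in siErk3 and -0.53 ± 0.14 (SE, adjusted p = 0.167) in siMk5, neither called. The siMk5 interaction was lost without siNtc BSA library 3 (0.93 ± 0.20, adjusted p = 0.0546) or siMk5 BSA library 3 (0.86 ± 0.18, adjusted p = 0.0554). The change with PA in siMk5 was lost without siMk5 BSA library 3 (0.30 ± 0.14, adjusted p = 0.0749) and with the 18S share as a covariate (0.48 ± 0.22, adjusted p = 0.112). With the 18S share as a covariate the interaction was 1.04 ± 0.27 (adjusted p = 0.237).

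Direct comparison of the 2 silenced states called Col23a1 and Col25a1, both transmembrane. With BSA, 1 of 39 genes was called, where 0.588% of all genes were: Col23a1, with 5.11, 5.14 and 5.01 CPM in siErk3 and 7.63, 9.36 and 6.29 CPM in siMk5. Its log2 difference of siErk3 from siMk5 was -0.61 ± 0.13 (SE, adjusted p = 0.00804). The call was lost without siErk3 BSA library 3 (-0.59, adjusted p = 0.0648) or siMk5 BSA library 2 (-0.45, adjusted p = 0.188), and with the 18S share as a covariate the difference was -0.04 ± 0.25. With PA, 2 genes were called, where 1.03% of all genes were. Col23a1 differed by -0.61 ± 0.15 (SE, adjusted p = 0.0317), a call lost without siErk3 PA library 1, 2 or 3 or siMk5 PA library 2 or 3 (-0.64 to -0.56, adjusted p = 0.0639 to 0.172) or with only the libraries compared (adjusted p = 0.051). Col25a1 stood with PA at 17.5, 17.9 and 16.2 CPM in siNtc, 15.3, 14.4 and 13.5 CPM in siErk3, and 19.6, 17.8 and 21.6 CPM in siMk5. The siErk3 and siMk5 libraries did not overlap, and the difference was -0.45 ± 0.09 (SE, adjusted p = 0.00346), lost without siMk5 PA library 3 (-0.38 ± 0.10, adjusted p = 0.0586). With BSA, Col25a1 stood at 16.6, 14.8 and 15.1 CPM in siNtc, 13.4, 12.3 and 14.4 CPM in siErk3, and 19.7, 15.2 and 15.7 CPM in siMk5, with a difference of -0.34 ± 0.09 (SE, adjusted p = 0.0824).

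**Figure D5:**
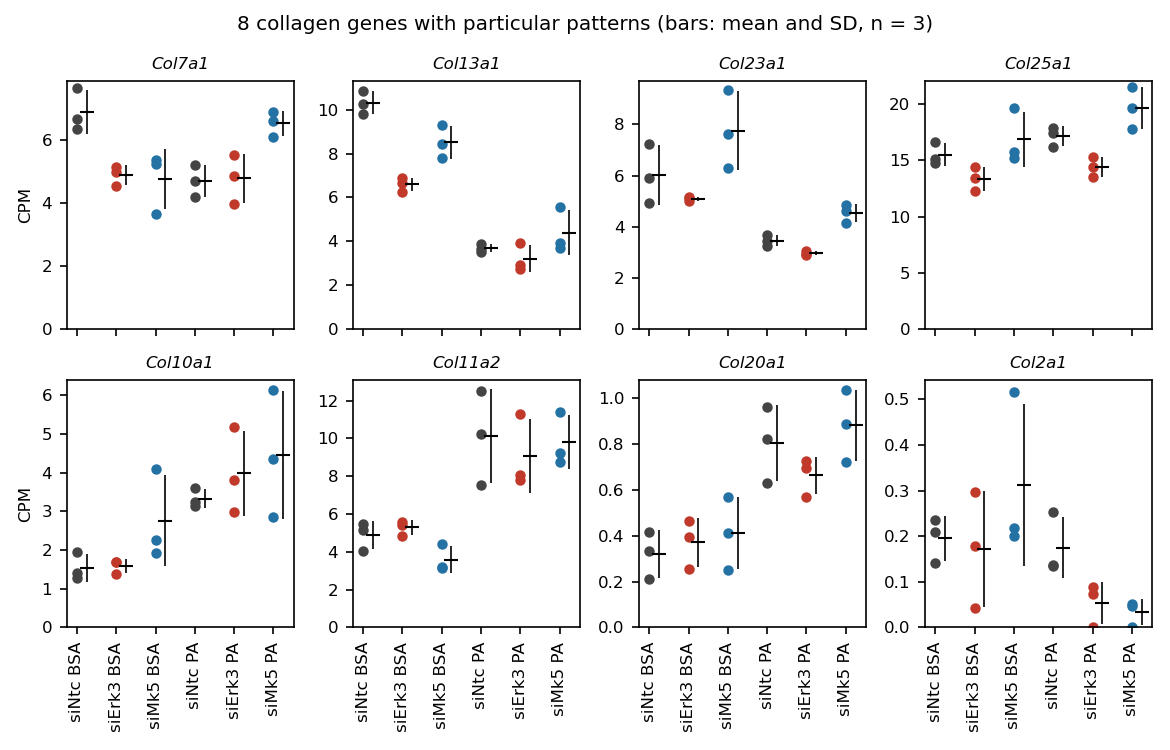
CPM of 8 collagen genes in each library of the 6 groups, with bars for the mean and SD of 3 libraries. Col7a1 is lower with PA in siNtc and higher with PA in siMk5, Col11a2 is higher with PA in all 3 states, and Col13a1 is lower in siErk3 than in siNtc with BSA.

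Genes that act on collagen before it leaves the cell moved in both directions with PA. Of 21 tested for folding and modification, 7, 7 and 7 were called higher and 7, 9 and 9 lower in siNtc, siErk3 and siMk5. Of all genes, 15.5%, 15.8% and 15.1% were called higher and 15.1%, 16.3% and 14.6% lower. The median log2 change of the 21 genes was 0.01, -0.14 and -0.11. Their summed CPM, to which abundant genes add most, was 134%, 126% and 122% of that with BSA. Mia2, which helps load procollagen into transport vesicles, had a log2 change of 1.04 ± 0.05 in siNtc, 1.12 ± 0.05 in siErk3 and 1.08 ± 0.05 in siMk5. Ppib, the prolyl isomerase cyclophilin B, had 0.94 ± 0.05 in siNtc, 0.90 ± 0.05 in siErk3 and 0.82 ± 0.05 in siMk5. Both rose in every state. P4ha3, a prolyl 4-hydroxylase subunit, fell, with -1.45 ± 0.12 in siNtc, -1.87 ± 0.12 in siErk3 and -1.71 ± 0.12 in siMk5, as did Plod2, a lysyl hydroxylase, with -0.78 ± 0.06 in siNtc, -0.88 ± 0.06 in siErk3 and -0.91 ± 0.06 in siMk5.

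Of 17 genes for procollagen processing and cross-linking, 12, 14 and 14 were lower with PA in siNtc, siErk3 and siMk5 and none higher. Of all genes, 15.1%, 16.3% and 14.6% were called lower and 15.5%, 15.8% and 15.1% higher. Bmp1, the protease that trims the C-propeptide, changed by -0.80 ± 0.06 in siNtc, -0.87 ± 0.06 in siErk3 and -0.76 ± 0.06 in siMk5. Pcolce2, its enhancer, changed by -1.01 ± 0.08 in siNtc, -1.46 ± 0.08 in siErk3 and -1.15 ± 0.08 in siMk5. The lysyl oxidase family members Loxl1 and Loxl2, which cross-link collagen, fell too: Loxl1 changed by -1.04 ± 0.09 in siNtc, -1.34 ± 0.09 in siErk3 and -1.26 ± 0.09 in siMk5. Loxl2 changed by -1.21 ± 0.11 in siNtc, -1.61 ± 0.11 in siErk3 and -1.12 ± 0.11 in siMk5. Pcolce2 was also the 1 gene of this list called under silencing, lower in siErk3 than siNtc with PA by -0.39 ± 0.09 (SE, adjusted p = 0.0254).

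Among 13 genes of collagen breakdown and its inhibitors, 2, 2 and 2 were higher and 8, 8 and 7 lower. Among all genes, 15.5%, 15.8% and 15.1% were called higher and 15.1%, 16.3% and 14.6% lower. Mmp13, an interstitial collagenase, stood at 0 to 0.143 CPM with BSA and 3.79 to 5.83 CPM with PA, so nearly all its reads came from PA libraries. Timp2 and Mmp15 fell, with log2 changes of -0.69 ± 0.05 in siNtc, -0.84 ± 0.05 in siErk3 and -0.84 ± 0.05 in siMk5 for Timp2. For Mmp15 they were -1.04 ± 0.07 in siNtc, -1.11 ± 0.07 in siErk3 and -1.10 ± 0.07 in siMk5. Of 8 collagen receptors, 1 was higher and 4 lower in each state, beside the same shares of all genes. Ddr2, a receptor kinase for fibrillar collagen, stood at 126 to 138 CPM with BSA and 365 to 403 CPM with PA, and its log2 change was 1.51 ± 0.05 in siNtc, 1.57 ± 0.05 in siErk3 and 1.52 ± 0.05 in siMk5. The collagen-binding integrins Itga1 and Itga11 fell: Itga11 changed by -1.28 ± 0.10 in siNtc, -1.52 ± 0.10 in siErk3 and -1.47 ± 0.10 in siMk5. Itga1 changed by -1.47 ± 0.17 in siNtc, -1.79 ± 0.16 in siErk3 and -1.79 ± 0.17 in siMk5.

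Of 15 genes for TGF-beta ligands and receptors, the best known inducers of collagen transcription, 3 were higher and 8 lower in each state. In siNtc, siErk3 and siMk5, 15.5%, 15.8% and 15.1% of all genes were called higher and 15.1%, 16.3% and 14.6% lower. Smad3, a transducer of the signal, changed by -1.001 ± 0.05 in siNtc, -1.07 ± 0.05 in siErk3 and -1.09 ± 0.05 in siMk5. Tgfb3, a ligand, changed by -1.01 ± 0.06 in siNtc, -1.17 ± 0.06 in siErk3 and -0.99 ± 0.06 in siMk5. Ltbp2, of the latent TGF-beta binding protein family, changed by -0.68 ± 0.05 in siNtc, -0.94 ± 0.05 in siErk3 and -0.81 ± 0.05 in siMk5. Tgfbi, in this list, was lower in siErk3 than in siMk5 with PA by -0.98 ± 0.22 (SE, adjusted p = 0.0108).

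Of 15 other basement membrane genes, 1 was higher and 8, 9 and 9 lower. Of all genes, 15.5%, 15.8% and 15.1% were called higher and 15.1%, 16.3% and 14.6% lower. Nid2, which links laminin to type IV collagen, changed by -1.34 ± 0.08 in siNtc, -1.57 ± 0.08 in siErk3 and -1.61 ± 0.08 in siMk5. Hspg2, encoding perlecan, changed by -0.68 ± 0.06 in siNtc, -0.90 ± 0.06 in siErk3 and -0.80 ± 0.06 in siMk5. Lama5, a laminin chain, changed by -0.59 ± 0.05 in siNtc, -0.74 ± 0.05 in siErk3 and -0.60 ± 0.05 in siMk5. Agrn, encoding agrin, was higher in siErk3 than in siMk5 with PA by 0.48 ± 0.06 (SE, adjusted p = 2.12e-06).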

How the data were processed

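RNA-seq of 18 libraries was used, 3 in each of 6 groups taken from the sample labels. The authors trimmed reads with Trim Galore, aligned them with STAR to GRCm39 (Ensembl release 105) and deposited raw counts per gene from featureCounts, which kept primary, reversely stranded pairs of mapping quality 3 or more. The submitters' processing notes name the build mm10, but the coordinates in the count file are those of GRCm39. The authors also deposited a log2 table of 21772 genes, which equals the log2 of each count divided by 1 factor per library (largest relative deviation 3.6e-14) and was used only for that check. No columns of other samples were present.

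Genes with at least 10 counts in total (21772 of 55414) were tested with edgeR 4.0.16 (limma 3.58.1, R 4.3.3), by TMM scaling and a quasi-likelihood fit of 1 mean per group over all 18 libraries, with Benjamini-Hochberg adjustment over all genes. Genes with an adjusted p under 0.05 and a fold over 1.3 were called, in 9 comparisons of 2 groups and 2 interactions. Python 3.11.15 with pandas 2.3.3, numpy 2.4.6 and matplotlib 3.10.9 made the summaries and plots. The test scripts were first tested on simulated data. Alternatives were DESeq2 1.42.0, its size factors, a stricter count filter, no fold limit, a replicate block, fits of only the libraries compared, leaving out each library, and, chosen after seeing the data, the 18S share as a covariate.

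Members and gene lists were chosen with earlier results of these data known. Values per library are given for each collagen gene called in any comparison, for the 3 genes of highest level in each class and for the chains that assemble with them. Of each of 9 other lists (folding and modification, processing and cross-linking, breakdown, receptors, TGF-beta, other basement membrane genes, and markers of myotubes, cycling myoblasts and fibroblasts) the called genes were counted and up to 4 per comparison, those of smallest adjusted p, could be named.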

Additional observations from a re-analysis of the deposited data

Results flagged for a closer look

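The response of Col7a1 to PA differed between siMk5 and siNtc by a test of the difference itself. The interaction was 1.01 ± 0.19 on the log2 scale (SE, 3 libraries in each of 4 groups, adjusted p = 0.0101 by edgeR's quasi-likelihood test). PA libraries lay below BSA libraries in siNtc (3 of 3) and above them in siMk5 (3 of 3). The value without siNtc BSA library 3 was 0.93 (adjusted p = 0.0546), without siMk5 BSA library 3 it was 0.86 (adjusted p = 0.0554), and with the 18S share as a covariate it was 1.04 (adjusted p = 0.237). The 3 libraries of a group are too few for a test of single outlying samples here.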

How the results depend on the processing

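The counts of collagen genes called with PA (27 in siNtc, 29 in siErk3, 30 in siMk5) stayed within 1.5 times under every alternative run: 24 to 28, 26 to 30 and 27 to 31 when 1 library was left out, and 27, 28 and 24 with the 18S share as a covariate. Counts under silencing were small and moved. In siErk3 against siNtc with BSA the count of 1 (Col13a1) became 2 without the fold limit (adding Col18a1), 2 with only the libraries compared (adding Col7a1) and 0 with the 18S covariate. In siErk3 against siMk5 the count of 1 with BSA became 0 with the 18S covariate, and the count of 2 with PA became 1 with only the libraries compared and 3 with the stricter count filter. The siMk5 interaction of 1 became 0 with the 18S covariate. Because the 18S share was highest in siMk5 with BSA, calls lost with this covariate in comparisons with that group cannot be told apart from removal of its own difference. The cause of these shifts was not tested. Leaving out 1 library gave 1 to 1 for siErk3 and 0 to 0 for siMk5 with BSA, 0 to 3 and 0 to 1 with PA, 0 to 1 (BSA) and 0 to 3 (PA) for siErk3 against siMk5, and 0 to 1 for each interaction. Of 1188 values of single called genes under an alternative, 1131 kept their direction and call, 57 kept direction only and 0 reversed. Same-numbered libraries did not deviate together in every pair (r from -0.66 to 0.58). With 3 libraries per group, this check cannot show whether they shared a culture or a batch. With the replicate block, counts with PA were 27, 28 and 30 (Col20a1 in siErk3 had an adjusted p of 0.0559 by edgeR). The other counts were unchanged. Genes with under 30 reads per group, such as Col2a1, Col4a6, Col6a5 and Col9a3, could not show modest changes at this depth.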
